A study of Mus musculus with 10 samples.

Results

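A set of 6 genes of phosphate transport and of primary familial brain calcification was followed in brain RNA of Slc20a2-HO mice, in which both copies of the phosphate importer gene Slc20a2 carry a knockout allele. The genes were picked by name from the count table. They are Slc20a2, its paralog Slc20a1, the phosphate exporter gene Xpr1, the growth factor gene Pdgfb, its receptor gene Pdgfrb and the junction gene Jam2, 6 of the 54532 genes in the table. All 6 passed the filter on low counts, which kept 17665 genes.

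RNA-seq was done on 10 mice, all of them Slc20a2-HO with the tm1a(EUCOMM)Wtsi allele, a cassette designed to trap the transcript of the gene. Of these, 6 received FTY720 (fingolimod, a modulator of sphingosine-1-phosphate receptors) at 0.5 mg/kg in dimethyl sulfoxide and 4 received dimethyl sulfoxide alone as placebo, by intraperitoneal injection 3 times a week for 12 weeks from the age of 1.5 months. RNA came from 1 of 2 equal parts of each brain after perfusion, the other being fixed, and the plane of division is not given in the sources used here. Wild type libraries were not analysed here, so no level below has a reference outside the -HO mice.

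The name of each mouse holds a letter for the treatment, then the digit 1 or 3, then a number, as in F1-622 and P3-612. The labels do not say what the digit stands for. The digit 1 was carried by 3 FTY720 mice and 1 placebo mouse, and the digit 3 by 3 FTY720 and 3 placebo mice. Libraries stood apart by this digit. The summed level of 16 cerebellum marker genes was between 859 and 984 CPM (counts scaled to library size) in the 4 digit 1 mice and between 2704 and 3367 CPM in the 6 digit 3 mice, and 15 markers of cerebral cortex and hippocampus summed to between 3606 and 4435 CPM in digit 1 mice and between 2264 and 2927 CPM in digit 3 mice. The cerebellum sum of digit 1 mice was mostly Itpr1 (mean 512 CPM) and Calb1 (mean 192 CPM). The 16 genes differed by digit from 1.82-fold for Calb1 to 1278-fold for Gabra6 (means of 0.109 and 148 CPM). Cbln3 had means of 0.695 and 290 CPM. The labelled tissue was brain in every sample, and neuron, astrocyte and oligodendrocyte markers were abundant in all 10 libraries, with sums of 4654 CPM or more for each list of 10 genes in every mouse. In bulk RNA, fewer cells of a type and less RNA per cell cannot be told apart.

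Cells take up inorganic phosphate through the sodium-dependent transporters PiT-1 and PiT-2, the products of Slc20a1 and Slc20a2, and release it through XPR1, a channel-like exporter that responds to inositol pyrophosphates. PDGF-B is released by endothelial cells and binds PDGF receptor beta on pericytes, which it recruits to the vessel wall, and JAM2 is an adhesion molecule of cell junctions. Inherited loss of function of SLC20A2, XPR1, PDGFB, PDGFRB or JAM2 causes calcium phosphate deposits along small brain vessels in people.

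Slc20a2 (ENSMUSG00000037656, GRCm38 chromosome 8 from 22476788 to 22569612, plus strand) and Slc20a1 (ENSMUSG00000027397, chromosome 2 from 129198764 to 129211616, plus strand) share coding sequence, so the stretch in which their reads are hardest to tell apart is shown first. Over 1889 aligned coding bases of 1 transcript of each gene the 2 genes were identical at 69.4%. The longest run that both transcripts hold on the same strand was 23 bases, and no run of 25 bases was found in both. The following windows of 59 bases, in exon 9 of 11 in both transcripts (chr2:129209162-129209220 and chr8:22564153-22564211, plus strand, GRCm38), surround that run. Capitals mark the 53 bases that are the same in both genes.
Slc20a1: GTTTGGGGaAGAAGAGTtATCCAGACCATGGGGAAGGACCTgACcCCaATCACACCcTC
Slc20a2: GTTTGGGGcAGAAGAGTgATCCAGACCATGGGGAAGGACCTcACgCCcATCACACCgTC
Even within these windows the lower-case positions separate the genes in any stretch longer than the shared run.

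The first comparison asked whether FTY720 treatment changed brain gene expression in the -HO mice. No member differed between the treatments by more than the spread between mice. None of the 17665 genes tested passed at an adjusted p under 0.05 (0%, quasi-likelihood test of edgeR, Benjamini-Hochberg), 461 genes (2.61%) had an unadjusted p under 0.05, and none of the 6 members was among these. DESeq2 gave 0 and 550 genes. With the digit as a covariate 2256 genes had an unadjusted p under 0.05, none of them a member, and in the digit 3 mice alone 1283 did, Pdgfrb among them, with none at an adjusted p under 0.05 in either fit. Leaving out a mouse moved the count of 461 to 281 without P3-907, 300 without P3-612 and 984 without P3-904, the last with Xpr1 among them. The levels of the FTY720 and placebo mice overlapped in all 6 members, where 0.804% of all genes tested had groups that did not overlap.

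The second comparison set the 6 digit 3 mice beside the 4 digit 1 mice, with treatment as a covariate. Slc20a2 and Jam2 were higher and Pdgfb was lower in digit 3 mice, while the differences of Slc20a1, Xpr1 and Pdgfrb did not pass the test. These 3 of 6 members stood beside 5010 of 17665 genes (28.4%) at an adjusted p under 0.05, 13.9% of genes higher and 14.4% lower. The count was 2593 without P1-623 and 2908 without F3-609. A difference by digit is common among all genes, so it is not particular to these members. Whether the share of 3 of 6 members differs from 28.4% was not tested. The groups did not overlap in Slc20a2 and Pdgfb, and in 14.2% of all genes tested.

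**Figure D1:**
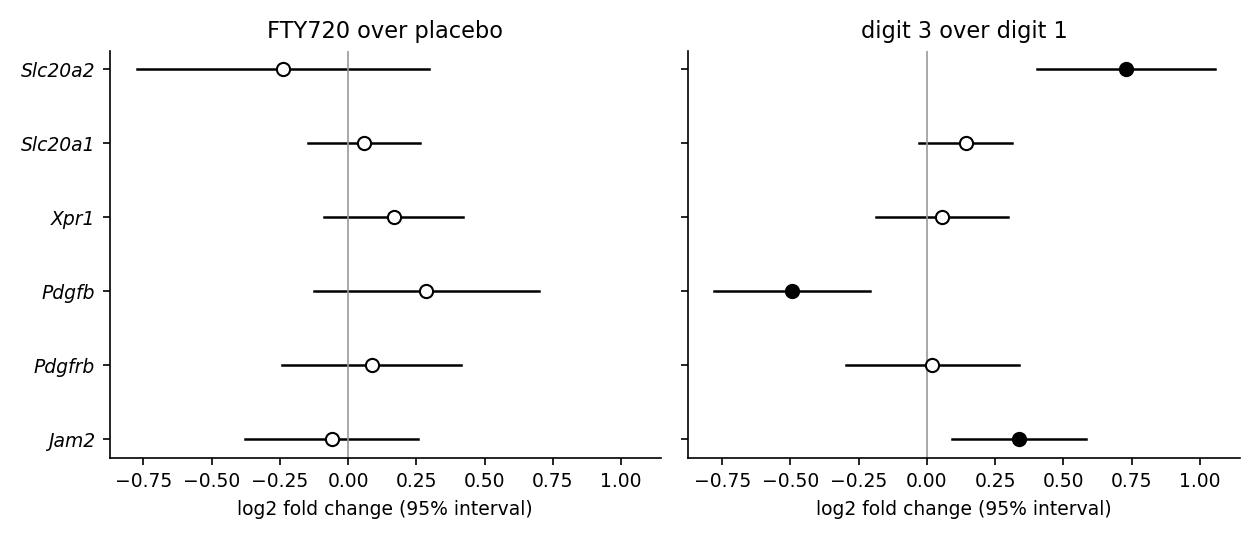
Log2 fold change (horizontal axis) of each of the 6 genes for FTY720 over placebo (left) and for the digit 3 over the digit 1 (right), from edgeR's quasi-likelihood fit. Lines are 95% confidence intervals and filled points have an adjusted p under 0.05. All 6 intervals on the left include 0, and on the right those of Slc20a2, Pdgfb and Jam2 do not.

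Slc20a2, the targeted importer gene, had between 89 and 294 counts per mouse, the fewest of the 6 genes. The count covers the whole gene and is not divided by exon, so it does not show how much intact message remained. In the FTY720 mice its level was between 6.31 and 14.8 CPM with a median of 11.1. The placebo mice had 9.43 (P1-623), 11.5 (P3-612), 13.3 (P3-907) and 17.0 CPM (P3-904). The lowest values of both treatments belonged to digit 1 mice, and the treatments overlapped. The log2 fold change for FTY720 over placebo was -0.24 (SE 0.25, 95% interval -0.77 to 0.30, adjusted p = 0.99992, edgeR, Benjamini-Hochberg). With the digit in the fit it was -0.09 and in digit 3 mice alone -0.00077, and a two-sided exact permutation test over all 210 splits of the mice into 6 and 4 gave p = 0.362.

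By digit, Slc20a2 was at 6.31 (F1-622), 8.02 (F1-624), 9.23 (F1-918) and 9.43 CPM (P1-623) in digit 1 mice. With the digit 3 it was between 11.5 and 17.0 CPM with a median of 13.5. Every digit 3 mouse was above every digit 1 mouse, whichever treatment it had received. Slc20a2 was 1.66-fold higher in digit 3 mice (95% interval 1.32 to 2.08, log2 fold change 0.73, SE 0.15, adjusted p = 0.00463, edgeR, Benjamini-Hochberg). The exact permutation p was 0.00476, the smallest that 210 splits can give. The call was kept in all 18 alternative fits, with log2 fold changes between 0.46 and 0.83.

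A second transcript model lies inside the gene. Gm17491 (ENSMUSG00000097042, chromosome 8 from 22480291 to 22483332) is annotated as sense intronic in intron 1 of the Slc20a2 transcript used above and was looked at after its values were seen. It had between 31 and 123 counts per mouse, at 1.83 to 3.47 CPM in digit 1 mice and 3.39 to 7.33 CPM in digit 3 mice. These ranges overlap by a small margin. Its log2 fold change for the digit 3 over the digit 1 was 1.09 (SE 0.23, adjusted p = 0.00542, edgeR, Benjamini-Hochberg). Slc20a2 also shares 95 exonic bases with Smim19 on the opposite strand, which had 390 to 581 counts, and the strand setting of the counting is not given in the sources used here.

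**Figure D2:**
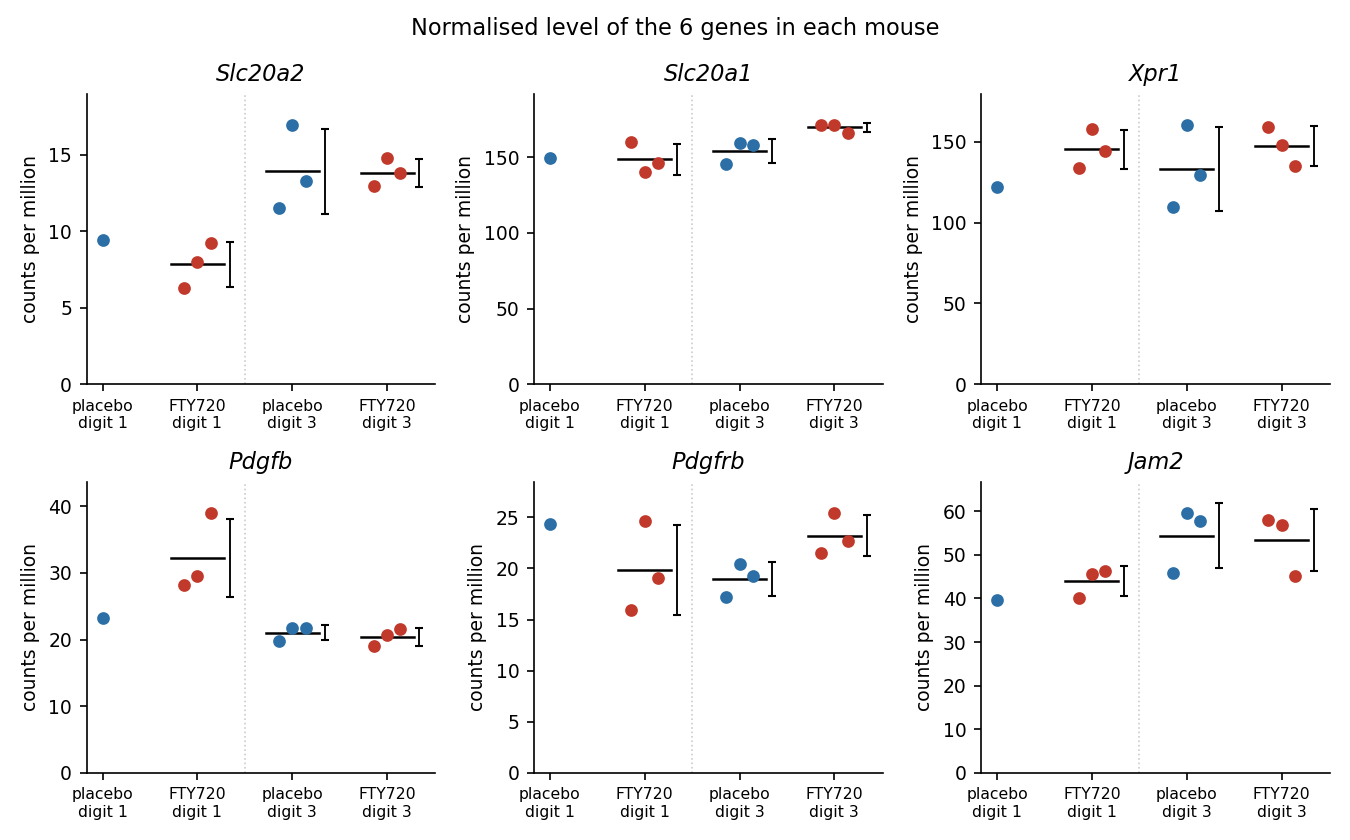
Level in CPM (vertical axes, starting at 0) of the 6 genes in each of the 10 mice, grouped by treatment and by the digit of the mouse name. Points are mice, horizontal lines are group means and the bars beside them are 1 SD, and the placebo group of the digit 1 is a single mouse. Slc20a2 lies between 6.31 and 9.43 in digit 1 mice and between 11.5 and 17.0 in digit 3 mice, and Pdgfb lies between 23.2 and 39.0 and between 19.0 and 21.7.

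Slc20a1, which encodes the importer PiT-1, had between 2257 and 2949 counts per mouse, the highest of the 6 genes in 8 of 10 mice. Xpr1 had more in F1-624 and P3-904. The FTY720 mice were between 140.1 and 171.5 CPM with a median of 163 CPM. The placebo mice had 145 (P3-612), 149 (P1-623), 158 (P3-907) and 159 CPM (P3-904). The narrower placebo range lay inside that of the FTY720 mice. FTY720 gave a log2 fold change of 0.06 (SE 0.09, 95% interval -0.15 to 0.26, adjusted p = 0.99992, edgeR, Benjamini-Hochberg; exact permutation p = 0.429). Among the digit 3 mice alone, the 3 FTY720 mice (166 to 171.5 CPM) were all above the 3 placebo mice (145 to 159 CPM), with an exact permutation p of 0.1, the smallest that 20 splits of 3 against 3 can give.

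Slc20a1 was at 140.1 to 160.0 CPM in digit 1 mice and at 145 to 171.5 CPM in digit 3 mice. The ranges overlapped over most of their span. The log2 fold change for the digit 3 was 0.14 (SE 0.08, 95% interval -0.03 to 0.31, adjusted p = 0.197, edgeR, Benjamini-Hochberg; exact permutation p = 0.0762). On the opposite strand Slc20a1 shares 2444 exonic bases with 9830144P21Rik (46 to 165 counts) and 280 with Gm4430 (77 to 129 counts), and reads of such pairs cannot be told apart without the strand setting.

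Xpr1, the phosphate exporter gene (ENSMUSG00000026469, chromosome 1 from 155275701 to 155417415, minus strand), had between 1841 and 2782 counts per mouse. It was between 134 and 159 CPM with a median of 146 in the FTY720 mice. The placebo mice had 109 (P3-612), 122 (P1-623), 129.6 (P3-907) and 161 CPM (P3-904). Apart from P3-904, the highest of all 10 mice, the placebo mice lay below every FTY720 mouse. For FTY720 the test gave a log2 fold change of 0.17 (SE 0.12, 95% interval -0.09 to 0.42, adjusted p = 0.99992, edgeR, Benjamini-Hochberg; exact permutation p = 0.133). Without P3-904 it was 0.28 (unadjusted p = 0.0241, adjusted p = 0.776, edgeR, Benjamini-Hochberg).

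By digit, Xpr1 was at 122 to 158 CPM in digit 1 mice and at 109 to 161 CPM in digit 3 mice. The wider range held the narrower one. The log2 fold change was 0.05 (SE 0.11, 95% interval -0.19 to 0.30, adjusted p = 0.740, edgeR, Benjamini-Hochberg; exact permutation p = 0.976).

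Pdgfb, the gene of the PDGF-B ligand (ENSMUSG00000000489, chromosome 15 from 79995874 to 80014977, minus strand), had between 318 and 650 counts per mouse. It shares 1156 exonic bases with Gm41361 on the opposite strand, which had 12 to 27 counts. The FTY720 mice were between 19.0 and 39.0 CPM with a median of 24.8. The placebo mice had 19.7 (P3-612), 21.7 (P3-904), 21.7 (P3-907) and 23.2 CPM (P1-623). The spread of the FTY720 group came from its 3 digit 1 mice, which were the 3 highest of all. FTY720 over placebo gave a log2 fold change of 0.29 (SE 0.19, 95% interval -0.13 to 0.70, adjusted p = 0.99992, edgeR, Benjamini-Hochberg; exact permutation p = 0.310). With the digit in the fit it was 0.12, and in digit 3 mice alone -0.04.

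By digit, Pdgfb was at 23.2 (P1-623), 28.1 (F1-622), 29.6 (F1-624) and 39.0 CPM (F1-918) in digit 1 mice. With the digit 3 it was between 19.0 and 21.7 CPM with a median of 21.1. Every digit 3 mouse was below every digit 1 mouse, and the 6 values in digit 3 mice were close together (SD 1.15 CPM). Pdgfb fell by 0.50 on the log2 scale in digit 3 mice (SE 0.13, 95% interval -0.78 to -0.21, a level of 0.709 times that in digit 1 mice, adjusted p = 0.0157, edgeR, Benjamini-Hochberg). The exact permutation p was 0.00476. Leaving out F3-609 was the 1 alternative of 18 that ended the call (log2 fold change -0.43, adjusted p = 0.0576, edgeR, Benjamini-Hochberg).

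Pdgfrb, the gene of the receptor on pericytes (ENSMUSG00000024620, chromosome 18 from 61045150 to 61085061, plus strand), was covered by 225 to 437 counts per mouse and overlaps no other gene of the table. The FTY720 mice were between 16.0 and 25.4 CPM with a median of 22.1. The placebo mice had 17.2 (P3-612), 19.3 (P3-907), 20.4 (P3-904) and 24.4 CPM (P1-623). Both the lowest and the highest mouse were in the FTY720 group. FTY720 gave a log2 fold change of 0.09 (SE 0.15, 95% interval -0.24 to 0.41, adjusted p = 0.99992, edgeR, Benjamini-Hochberg; exact permutation p = 0.619).

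Within the digit 3, the 3 FTY720 mice had 21.5 (F3-609), 22.7 (F3-908) and 25.4 CPM (F3-612) of Pdgfrb and were all above the 3 placebo mice, which had between 17.2 and 20.4 CPM. The log2 fold change there was 0.30 (unadjusted p = 0.0459, adjusted p = 0.654, edgeR, Benjamini-Hochberg), and the exact permutation p was 0.1, the smallest possible. Pdgfrb thus failed the correction in this smaller set of mice. By digit it was at 16.0 to 24.6 CPM in digit 1 mice and 17.2 to 25.4 CPM in digit 3 mice, nearly the same range, with a log2 fold change of 0.02 (SE 0.15, 95% interval -0.30 to 0.34, adjusted p = 0.931, edgeR, Benjamini-Hochberg; exact permutation p = 0.895).

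Jam2, the junctional adhesion molecule gene (ENSMUSG00000053062, chromosome 16 from 84774123 to 84825928, plus strand), was covered by 566 to 1068 counts per mouse. The FTY720 mice were between 40.1 and 58.1 CPM with a median of 46.0 CPM. The placebo mice had 39.6 (P1-623), 45.9 (P3-612), 57.9 (P3-907) and 59.6 CPM (P3-904). Low and high values occurred in both treatments. For FTY720 the test gave a log2 fold change of -0.06 (SE 0.15, 95% interval -0.38 to 0.26, adjusted p = 0.99992, edgeR, Benjamini-Hochberg; exact permutation p = 0.733), and it was 0.03 with the digit as a covariate.

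By digit, Jam2 was at 39.6 (P1-623), 40.1 (F1-622), 45.5 (F1-624) and 46.4 CPM (F1-918) in digit 1 mice. With the digit 3 it was between 45.2 and 59.6 CPM with a median of 57.4. The mice F3-908 and P3-612 fell within the range of the digit 1 and the other 4 lay above it. Jam2 was 1.26-fold higher in digit 3 mice (log2 fold change 0.34, SE 0.11, 95% interval 0.09 to 0.58, adjusted p = 0.0421, edgeR, Benjamini-Hochberg; exact permutation p = 0.0286). This call was lost in 5 of 8 other settings and in 8 of the 10 fits that left out a mouse. It held without F3-908 and without P3-612, and the adjusted p was highest without P1-623, at 0.203 (edgeR, Benjamini-Hochberg).

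The brain markers moved with the same digit as the 3 members. All 16 cerebellum markers were higher (median log2 fold change 3.06 against -0.01 over all genes) and 12 of 15 markers of cortex and hippocampus were lower in digit 3 mice (edgeR, adjusted p under 0.05). The 10 hindbrain markers, all Hox genes, summed to 0.0590 to 0.420 CPM in digit 1 mice, where 8 of them had no count in any mouse, and to 10.5 to 16.4 CPM in digit 3 mice. Of 10 microglia markers, 8 were lower. Of 10 astrocyte markers, 2 were higher and 1 was lower, and of 10 oligodendrocyte markers, 1 was higher and 1 was lower. Over all genes tested, 13.9% were higher and 14.4% were lower in digit 3 mice. No gene of these lists was at 0 counts in every mouse. The part of these markers' tissues and cells in the differences of Slc20a2, Pdgfb and Jam2 was not tested. Of 10 neuron markers, 3 were lower and 1 was higher, with sums of 7649 to 8090 CPM in digit 1 mice and 6999 to 7574 CPM in digit 3 mice. The sums of the cerebellum, hindbrain, cortex and neuron lists separated the mice as the digit did, so these and the digit cannot be told apart. The microglia sum did not, at 419 to 557 CPM in digit 1 mice and 283 to 427 CPM in digit 3 mice. In the 6 FTY720 mice alone, 3 of each digit, the log2 fold change for the digit 3 was 0.83 for Slc20a2 (adjusted p = 0.0108), -0.64 for Pdgfb (adjusted p = 0.0155) and 0.30 for Jam2 (adjusted p = 0.142, edgeR, Benjamini-Hochberg).

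Whether the difference between treatments itself changed with the digit was tested by an interaction term. None of 17665 genes passed (0% at an adjusted p under 0.05, 345 genes at an unadjusted p under 0.05, DESeq2 0 and 279). The terms of Pdgfb (log2 -0.52, SE 0.25, unadjusted p = 0.0625) and Pdgfrb (log2 0.58, SE 0.28, unadjusted p = 0.0610) were the largest of the 6 members in size, both with an adjusted p of 0.99994 (edgeR, Benjamini-Hochberg). P1-623 was the only digit 1 mouse with placebo, so these terms rest on 1 library.

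Levels were compared between genes per length, as CPM divided by the exonic length in kb. Slc20a1 was highest, at 25.1 to 30.7 CPM per kb, and was above Xpr1 in all 10 mice, by between 2.84 and 4.26 times. Xpr1 (6.12 to 8.98 CPM per kb) and Jam2 (6.56 to 9.86 CPM per kb) could not be ordered, since Xpr1 was above Jam2 in 5 of 10 mice. Pdgfb followed at 4.56 to 9.37 CPM per kb, below Jam2 in 8 mice, the exceptions being F1-622 and F1-918.

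The receptor gene lay below its ligand gene and the targeted gene lay lowest. Pdgfrb was at 2.91 to 4.64 CPM per kb and below Pdgfb in all 10 mice, although by only 1.07 times in F3-612. Slc20a2 was at 1.02 to 2.73 CPM per kb and below Pdgfrb in all 10 mice. These values spread reads evenly over the exonic length of a gene, which ranges from 4161 bases for Pdgfb to 17880 bases for Xpr1.

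**Figure D3:**
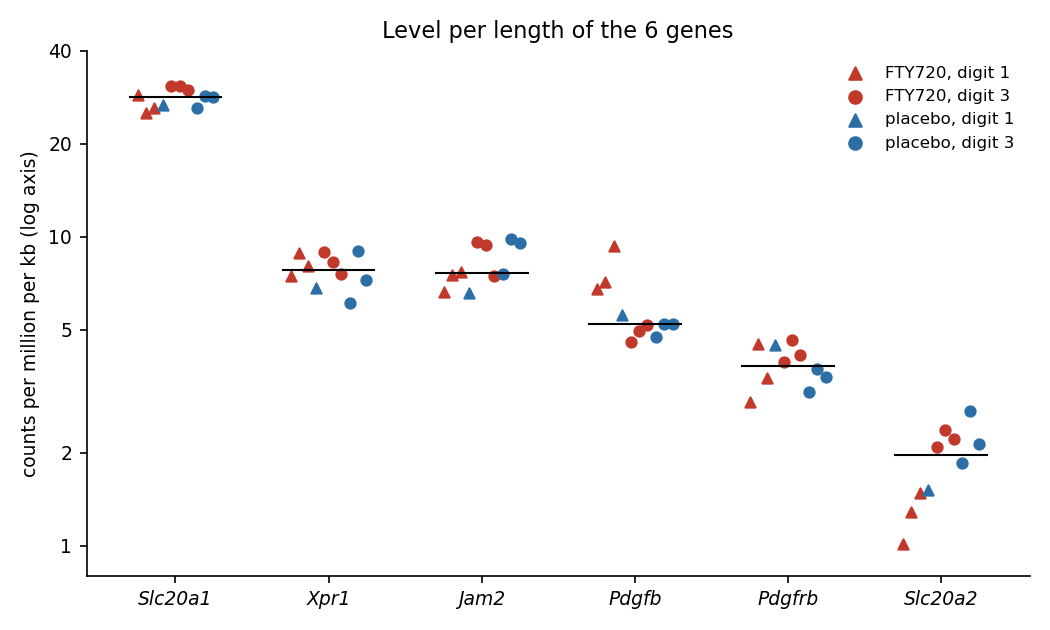
CPM per kb of exonic length (vertical axis, log scale) for the 6 genes in order of their median, with 1 point per mouse, colour for treatment, shape for the digit and a line at the median of the 10 mice. Slc20a1 lies between 25.1 and 30.7 and Slc20a2 between 1.02 and 2.73.

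Ratios within a library do not depend on how libraries are scaled. The importers were compared first. Slc20a1 over Slc20a2, as a ratio of CPM per kb, was 17.6 (F1-918), 17.6 (P1-623), 19.5 (F1-624) and 28.3 (F1-622) in digit 1 mice. With the digit 3 it was between 10.4 and 14.8 with a median of 13.3. No digit 3 mouse reached the lowest value of the digit 1, and the log2 difference was -0.64 (two-sided exact permutation p = 0.00476, adjusted p = 0.0143 over 6 tests by Benjamini-Hochberg).

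The exporter stood in a similar relation to the targeted importer. Xpr1 over Slc20a2 was between 4.50 (P1-623) and 7.37 (F1-622) in digit 1 mice and between 3.29 and 4.28 in digit 3 mice. Again the groups did not overlap (log2 difference -0.76, exact permutation p = 0.00476, adjusted p = 0.0143 over 6 tests by Benjamini-Hochberg). Both ratios share Slc20a2, so they are not separate evidence.

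Between treatments the ratios overlapped. Slc20a1 over Slc20a2 was between 12.9 and 28.3 with FTY720 and between 10.4 and 17.6 with placebo (exact permutation p = 0.219, adjusted p = 0.263 by Benjamini-Hochberg). Xpr1 over Slc20a2 was between 3.40 and 7.37 and between 3.29 and 4.50 (exact permutation p = 0.124, adjusted p = 0.186 by Benjamini-Hochberg). Without P1-623 the log2 difference of Xpr1 over Slc20a2 was 0.56, with an unadjusted exact permutation p of 0.0476. That set holds no digit 1 placebo mouse, so treatment and digit are mixed in this value. Within the digit 3 the log2 difference of Xpr1 over Slc20a2 was 0.15 (exact permutation p = 0.1, the smallest possible).

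The ligand to receptor ratio was the third. Pdgfb over Pdgfrb was 1.25 (P1-623), 1.58 (F1-624), 2.32 (F1-622) and 2.69 (F1-918) in digit 1 mice and between 1.07 and 1.51 in digit 3 mice. Only P1-623 fell within the range of the digit 3. The log2 difference of -0.53 (exact permutation p = 0.0381) did not pass after adjustment (p = 0.0762 by Benjamini-Hochberg over 6 tests), and it was -0.35 without F1-918, with an exact permutation p of 0.119. Between treatments the log2 difference was 0.16 over all mice (exact permutation p = 0.581) and had the other sign within the digit 3. There the 3 FTY720 mice were at 1.07 to 1.25 and the 3 placebo mice at 1.40 to 1.51, without overlap (log2 difference -0.34, exact permutation p = 0.1, the smallest possible). In digit 1 mice the 3 FTY720 mice lay above the single placebo mouse.

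**Figure D4:**
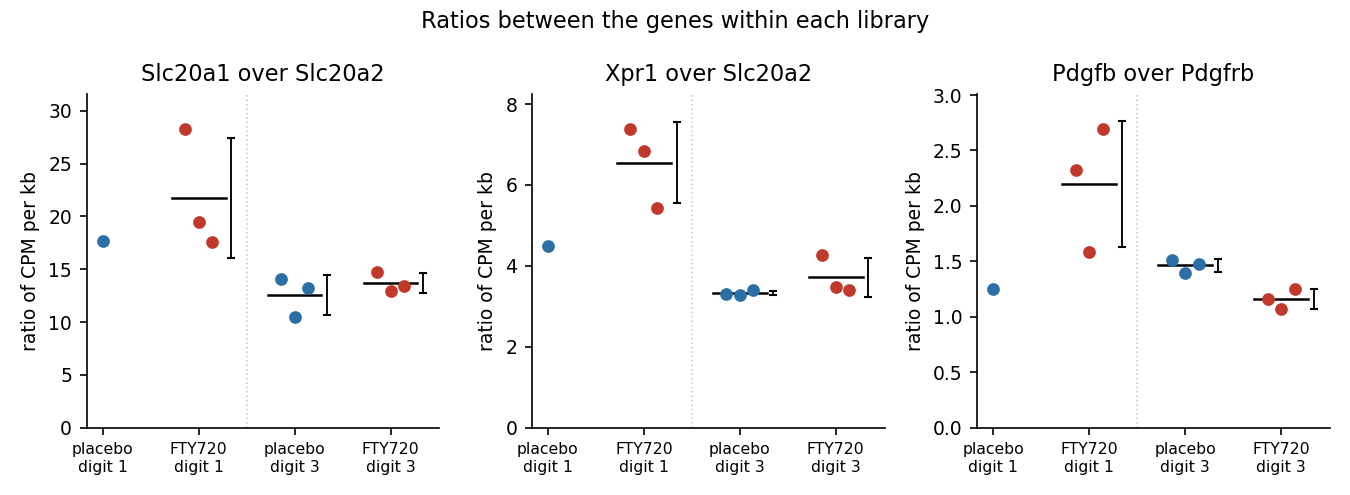
Ratios of CPM per kb (vertical axes, starting at 0) of Slc20a1 over Slc20a2, Xpr1 over Slc20a2 and Pdgfb over Pdgfrb in each mouse, by treatment and digit. Points are mice, lines are group means and bars are 1 SD, with a single placebo mouse at the digit 1. The first 2 ratios are lower in all 6 digit 3 mice than in the 4 digit 1 mice.

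The 3 vessel genes were set beside markers of the cells they are known from. With FTY720, 12 of 15 endothelial markers had a positive log2 fold change (median 0.36), 5 with an unadjusted p under 0.05, as 2.61% of all genes had, and none with an adjusted p under 0.05 (edgeR). Their summed level was between 295 and 449 CPM with FTY720 and between 281 and 317 CPM with placebo, and no marker was at 0 in every mouse. Of 10 oligodendrocyte markers, 9 had a negative value (median -0.19), 3 with an unadjusted p under 0.05 and none with an adjusted p under 0.05, with sums of 5967 to 6894 CPM with FTY720 and 6741 to 7840 CPM with placebo. Within the digit 3 the oligodendrocyte sum was between 5983 and 6185 CPM with FTY720 and between 6895 and 7840 CPM with placebo. The mural sums overlapped there, at 173 to 221 CPM and 180 to 185 CPM. The part of these cells in the members' values was not tested. Pdgfb minus the mean of the endothelial markers, on the log2 CPM scale, differed by -0.0009 between treatments over all mice (exact permutation p = 0.995). Within the digit 3 it was between -0.15 and 0.27 in the 3 FTY720 mice and between 0.30 and 0.55 in the 3 placebo mice (difference -0.38, exact permutation p = 0.1, the smallest possible). Pdgfb itself differed by -0.046 in log2 CPM there (exact permutation p = 0.5). The endothelial sum was between 352 and 449 CPM in those FTY720 mice and between 293 and 317 CPM in those placebo mice. It was thus mainly the markers that differed. In digit 1 mice Pdgfb minus the endothelial mean was between 0.80 and 1.06 with FTY720 and 0.67 in P1-623, so the directions differed. Jam2 minus the same mean differed by -0.29 (exact permutation p = 0.0571, adjusted p = 0.171 over 6 tests by Benjamini-Hochberg). For Jam2 the unadjusted exact permutation p was 0.0476 without P3-612 and 0.0357 without P1-623. Without P1-623 no placebo mouse had the digit 1, so treatment and digit are mixed there.

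By digit, the log2 level of Pdgfb minus the endothelial mean was between 0.67 and 1.06 in digit 1 mice and between -0.15 and 0.55 in digit 3 mice, without overlap. The difference was -0.60 (exact permutation p = 0.00952, adjusted p = 0.0571 over 6 tests by Benjamini-Hochberg). Jam2 minus the same mean differed by 0.23 (exact permutation p = 0.171, adjusted p = 0.343 over 6 tests by Benjamini-Hochberg). Of the 15 endothelial markers, 2 were higher and none lower in digit 3 mice (edgeR, adjusted p under 0.05), a share near the 13.9% of all genes that were higher. Their sum was between 281 and 354 CPM in digit 1 mice and between 293 and 449 CPM in digit 3 mice.

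Pdgfrb was set beside the mural cell list. Its log2 level minus the mean of the mural markers differed by 0.10 between treatments (exact permutation p = 0.481) and by 0.17 between digits (exact permutation p = 0.281). Within the digit 3 it was between 1.62 and 1.79 in the FTY720 mice and between 1.23 and 1.49 in the placebo mice, without overlap (difference 0.32, exact permutation p = 0.1, the smallest possible). The median log2 fold change of the mural markers by digit was -0.27, beside 0.02 for Pdgfrb. Of the 13 mural markers tested among 15, 2 were lower in digit 3 mice, the potassium channel gene Kcnj8 and the matrix protein gene Vtn (edgeR, adjusted p under 0.05), a share near the 14.4% of all genes. Their sum over 15 genes was between 193 and 219.7 CPM in digit 1 mice and between 173 and 221 CPM in digit 3 mice.

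Among the 3 other genes in which loss of function causes familial calcification, no treatment difference passed at an unadjusted p under 0.05, and 1, Myorg, was lower in digit 3 mice, beside 14.4% of all genes. Myorg (listed as AI464131), a glycosidase gene of astrocytes, was between 34.5 and 40.8 CPM in digit 1 mice and between 26.8 and 33.5 CPM in digit 3 mice. The ranges did not overlap (log2 fold change -0.33, SE 0.10, adjusted p = 0.0271, edgeR, Benjamini-Hochberg). Naa60, an acetyltransferase gene, had a log2 fold change of 0.15 and Cmpk2, a mitochondrial nucleotide kinase gene, one of -0.03 by digit. Like the lists below, this list holds no member.

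Of 12 other phosphate carrier genes, 9 were tested, since the 3 renal and intestinal type genes Slc34a1, Slc34a2 and Slc34a3 had at most 12 counts in any mouse. By digit 1 of 9 was lower and none higher, where 14.4% of all genes were lower. It was Slc37a1, a carrier of sugar phosphates, with 6.52 to 7.86 CPM in digit 1 mice and 4.40 to 6.23 CPM in digit 3 mice (log2 fold change -0.43, SE 0.14, adjusted p = 0.0416, edgeR, Benjamini-Hochberg). The median of the list was -0.20, beside -0.01 over all genes. For treatment, Slc37a2 alone had an unadjusted p under 0.05, at 5.07 ± 0.446 CPM (SD, n = 6) in FTY720 mice and 3.86 ± 0.721 CPM (SD, n = 4) in placebo mice. Its log2 fold change of 0.39 (SE 0.17) had an adjusted p of 0.99992 (edgeR, Benjamini-Hochberg). The largest negative value for treatment was that of Slc37a4, the carrier of glucose 6-phosphate, at -0.10.

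The exporter responds to inositol pyrophosphates, and 12 genes that make or break these, or partner XPR1, were tested. By digit 2 were higher and 1 lower, a share of calls below the 28.4% of all genes. Both diphosphoinositol kinase genes were higher, Ppip5k2 (29.2 to 41.6 CPM in digit 1 mice, 40.1 to 66.8 CPM in digit 3 mice, log2 fold change 0.75, adjusted p = 0.00223) and Ppip5k1 (log2 fold change 0.34, adjusted p = 0.0333, both edgeR, Benjamini-Hochberg). Nudt3, which encodes a phosphatase that removes the added phosphate, was lower (log2 fold change -0.57, SE 0.13, adjusted p = 0.0067, edgeR, Benjamini-Hochberg) and had the lowest value of the list in both comparisons (treatment -0.24). For treatment, Ipmk, an inositol polyphosphate kinase gene, had the highest value and an unadjusted p of 0.0480, at 41.5 ± 2.47 CPM (SD, n = 6) in FTY720 mice and 35.8 ± 3.28 CPM (SD, n = 4) in placebo mice (log2 fold change 0.21, adjusted p = 0.99992, edgeR, Benjamini-Hochberg). Kidins220, whose product binds XPR1, had log2 fold changes of 0.03 and 0.11 for treatment and digit.

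The other PDGF ligands did not share one direction, and of 5 genes of the family 1 was higher and 2 were lower by digit, beside 13.9% and 14.4% of all genes. Pdgfa was lower in digit 3 mice (39.6 to 46.1 CPM in digit 1 mice, 28.3 to 38.7 CPM in digit 3 mice, log2 fold change -0.39, adjusted p = 0.0214, edgeR, Benjamini-Hochberg), and so was Pdgfc (log2 fold change -0.47, adjusted p = 0.0252, edgeR, Benjamini-Hochberg). Pdgfd, another ligand of PDGF receptor beta, was higher, at 4.08 to 6.45 CPM in digit 1 mice and 8.55 to 13.5 CPM in digit 3 mice. Its log2 fold change was 1.19 (SE 0.15, adjusted p = 0.000211, edgeR, Benjamini-Hochberg), against -0.50 for Pdgfb. The receptor gene Pdgfra (log2 fold change -0.19) and the receptor-like gene Pdgfrl (0.49) did not pass. For treatment none of the 5 genes had an unadjusted p under 0.05, with values from -0.20 for Pdgfrl to 0.30 for Pdgfc.

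Of 13 genes of JAM relatives and their junction partners, 12 were tested, and 4 were higher and none lower in digit 3 mice, where 13.9% of all genes tested were higher and 14.4% lower. The highest was Jaml (log2 fold change 2.24, SE 0.37, adjusted p = 0.00118, edgeR, Benjamini-Hochberg), which had only 3 to 31 counts per mouse. Ocln, the gene of the tight junction protein occludin, was at 8.16 ± 1.35 CPM (SD, n = 4) in digit 1 mice and at 12.9 ± 1.82 CPM (SD, n = 6) in digit 3 mice (log2 fold change 0.74, adjusted p = 0.00177, edgeR, Benjamini-Hochberg). Afdn (log2 fold change 0.48, adjusted p = 0.0272) and Clmp (log2 fold change 0.41, adjusted p = 0.0151, edgeR, Benjamini-Hochberg), an adaptor and an adhesion molecule of junctions, were the other two. The nearest relatives of Jam2 differed less, with log2 fold changes of 0.01 for F11r and -0.07 for Jam3, which did not pass. The lowest value by digit was that of Cldn5, at -0.18. For treatment Jaml was lowest, at -0.29, and Cxadr was highest (log2 fold change 0.27, unadjusted p = 0.0409, adjusted p = 0.99992, edgeR, Benjamini-Hochberg).

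**Figure D5:**
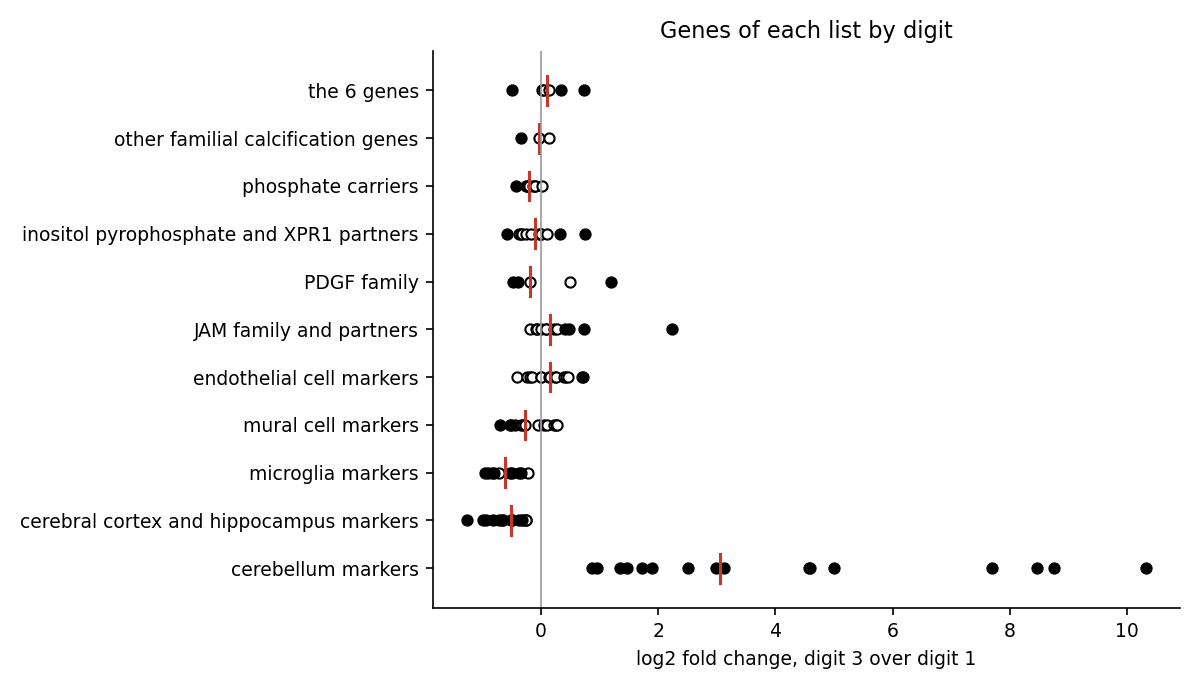
Log2 fold change for the digit 3 over the digit 1 (horizontal axis) of each tested gene of the 6 genes, 5 related lists and 5 marker lists (rows). Filled points have an adjusted p under 0.05 in edgeR's fit and red lines are list medians. The cerebellum markers reach far above the rest with a median of 3.06, while the median of the 6 genes is 0.10.

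Members were also compared with each other and with all other genes across mice. In the 6 digit 3 mice, the pair with the highest correlation of log2 CPM was Slc20a1 and Pdgfrb (Pearson r = 0.909, exact permutation p = 0.0125, Spearman rho = 0.943, exact permutation p = 0.0167). Over the 15 pairs the adjusted p was 0.188 for r and 0.250 for rho (Benjamini-Hochberg), and r was 0.754 without the 2 mice farthest from the median of Slc20a1. No pair passed. Slc20a2 and Slc20a1 had r = 0.416 (exact permutation p = 0.407), and the ligand and receptor genes Pdgfb and Pdgfrb had r = 0.128 (exact permutation p = 0.819).

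After the mean of each digit was subtracted, the likeness of each member to 14784 protein-coding genes was measured as Pearson's r over the 10 mice, with all genes read from the same 10 libraries, and is given as a description. The 3 genes most like Slc20a2 were Ambra1 (r = 0.971), Supt5 (r = 0.970) and Fbxl7 (r = 0.965). For Xpr1 they were Cep170 (r = 0.993), Tnks (r = 0.991) and Aff4 (r = 0.991), and for Slc20a1 they were Milr1 (r = 0.949), Usp16 (r = 0.939) and Usp3 (r = 0.928). For Jam2 they were Chrdl1 (r = 0.970), Crybg3 (r = 0.955) and Bicd2 (r = 0.952). Milr1 (0.24 to 0.83 CPM) and Fbxl7 (0.78 to 3.06 CPM) had few counts, so counting error weighs much in their r.

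Among the PDGF members, Pdgfrb was most like Plekhg2 (r = 0.958), Zfp661 (r = 0.952) and Xndc1 (r = 0.948). Pdgfb was most like Slco2b1 (r = 0.932), Gm5741 (r = 0.905) and Prom2 (r = 0.904). Gm5741 (0.46 to 2.22 CPM) and Prom2 (0.52 to 2.28 CPM) were also low. No member was among the 3 genes most like another member.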

How the data were processed

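RNA-seq counts of 10 mice were used. Per the labels and the study's methods, libraries were made with the NEBNext Ultra kit, bases were called with CASAVA 1.8, raw reads were processed with in-house scripts, and paired reads were aligned to GRCm38 with HISAT2 2.0.5. The submitters' processing notes also name fastp, featureCounts 1.5.0-p3 and DESeq2 1.20.0. The strand setting and annotation release are not given in the sources used here. The authors deposited whole-number counts per gene without normalization, and a table of FPKM values, which the authors scaled by gene length and a library total. Per mouse, 14772745 to 18303981 fragments were counted on genes (median 16653895), of which 4.83% to 6.48% were mitochondrial. Any 2 libraries differed by more than sampling noise (chi-square per degree of freedom of 16.1 or more over 5000 genes in 45 pairs), so none repeated the reads of another. That each library came from its own mouse is taken from the study's methods and the mouse names, since this comparison cannot show it.

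The 6 members and the gene and marker lists were chosen with earlier results of these data known. Counts were filtered (filterByExpr), scaled by TMM and tested with edgeR 4.0.16 (R 4.3.3, quasi-likelihood test, Benjamini-Hochberg adjustment over all genes tested, threshold 0.05). Treatment was fitted without a covariate, and the digit with treatment as covariate. CPM used TMM-scaled libraries, and log2 CPM a prior count of 2. Exact permutation tests were two-sided, over 210 splits of the 10 mice, 20 splits of the 6 digit 3 mice, all splits of the 9 mice where 1 was left out, and all pairings of the 6 mice for correlations. The 210 splits were not made within each digit, so the difference between digits is part of the spread in the treatment tests. Alternatives were DESeq2 1.42.0, RLE scaling, no filter, limma 3.58.1 on log2(FPKM + 0.1) and log2(FPKM + 1), other covariates, subsets of mice and each mouse left out. Genes named besides the members were those of the 5 related lists with an adjusted p under 0.05 in a comparison, an unadjusted p under 0.05 for treatment, or the highest or lowest value of their list, and the 3 genes most like each member. Gm17491, Kidins220, F11r, Jam3, Pdgfra, the Slc34a genes and marker genes named singly were chosen after their values were seen. Coordinates and sequences come from the files and GENCODE M21 (GRCm38), and all 6 members have the same coordinates in both. On simulated data with these groups of mice, edgeR recovered 36 of 100 genes changed 1.5-fold and 77 of 100 changed 2-fold between treatments. There were 8 false calls among 17403 genes. Between digits it recovered 31 and 68 of 100, with 3 false calls among 17384. The treatment simulation held no difference between digits and took its spread from a fit with the digit. The treatment test reported here had no digit term, so what it could recover in these libraries is not shown.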

Additional observations from a re-analysis of the deposited data

Results flagged for a closer look

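Of 48 combinations of a level or ratio with a group that were examined for a mouse standing apart from the rest of its group (the gap to its neighbour over the group's range), 2 stood out, and chance gives such a result in about 1 of 20 groups. Both concern Xpr1 over Slc20a2. The placebo mouse P1-623, the only placebo mouse with the digit 1, had a ratio of 4.50 against 3.29 to 3.40 in the other 3 placebo mice (gap over range 0.8988). The FTY720 mouse F3-609 had 4.28 against 3.29 to 3.48 in the other 5 mice with the digit 3 (gap over range 0.7836).

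For 2 values every FTY720 mouse lay on one side of the placebo mice in digit 1 mice and on the other side in digit 3 mice. Pdgfb over Pdgfrb differed between treatments by 0.78 on the log2 scale with the digit 1 and by -0.34 with the digit 3, which are -1.12 apart. Pdgfb minus the endothelial mean differed by 0.28 and -0.38, which are -0.66 apart. P1-623 was the only placebo mouse with the digit 1, and the difference between digits was not tested for these values.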

How the results depend on the processing

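With each of the alternatives, no member and no gene passed an adjusted p under 0.05 for treatment. The number of genes at an unadjusted p under 0.05 for treatment was 1117 without a filter (36165 genes tested), 2256 with the digit as a covariate, 1283 with the digit 3 alone, and 281 (without P3-907) to 984 (without P3-904) when a mouse was left out, with 300 without P3-612. The treatment value of Pdgfb turned to -0.040 with the digit 3 alone and that of Jam2 to 0.030 with the digit as a covariate (-0.16 to 0.027 with a mouse left out). Pdgfb minus the endothelial mean by treatment, -0.0009 at first, was 0.0031 from log2(FPKM + 0.1) and -0.11 to 0.13 with a mouse left out. In the digit 3 alone, added after the data were seen for ratios and levels against markers, Pdgfb over Pdgfrb by treatment turned from 0.16 to -0.34.

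For the digit, 2913 genes passed in the FTY720 mice alone, and 2593 (without P1-623) to 6046 (without P3-612) with a mouse left out, with 2908 without F3-609, and 1 to 3 members passed. Jam2 lost its call at 0.32 without a filter, 0.33 and 0.30 from log2(FPKM + 0.1) and log2(FPKM + 1), 0.32 with the leading digit of the mouse number as a covariate, 0.30 in the FTY720 mice alone, and in 8 of 10 fits with a mouse left out (0.28 to 0.41). Ranges with a mouse left out were -0.67 to -0.36 for Pdgfb, -0.090 to 0.22 for Pdgfrb, -0.72 to -0.35 for Pdgfb over Pdgfrb by digit, 0.33 to 0.56 for Xpr1 over Slc20a2 and -0.39 to -0.20 for Jam2 minus the endothelial mean by treatment, the last 3 crossing an unadjusted exact permutation p of 0.05. Without P1-623, which gave the 0.56 and the -0.39, every placebo mouse had the digit 3. Apart from the alternatives' own smaller or larger sets of mice and genes, the cause was not tested. The other values recomputed for members, their ratios and their levels against markers kept their direction and side of the threshold, which was an adjusted p for members. At an unadjusted p under 0.05, Xpr1 passed for treatment without P3-904 (0.0241) and Pdgfrb with the digit 3 alone (0.0459). Genes of the related lists, Gm17491 and the correlations were not recomputed under these alternatives. No paired analysis was possible because the groups share only 1 number, 612. Slc20a2 has the fewest counts, so counting error weighs most there.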
